A study of Mus musculus with 6 samples.

Results

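The receptors described here are 6 G protein-coupled receptors of microglia, the resident macrophages of the central nervous system: P2ry12 and P2ry13, which bind ADP, P2ry6, which binds UDP, Gpr34, which binds lysophosphatidylserine, Gpr56, an adhesion receptor whose current symbol is Adgrg1, and Cx3cr1, the receptor of the chemokine fractalkine. They were taken by symbol from the 38293 genes of the count tables, and all 6 had counts and passed the filter on low counts in each comparison below. RNA had been sequenced from the 3' ends of transcripts in single cells of the spinal cord of C57BL/6 mice, all 10 weeks old, after staining with 10 µM DCFDA, a dye that fluoresces once reactive oxygen species (ROS) oxidise it, and sorting on the myeloid surface protein CD11b and on the dye. Each of 3 groups had 2 libraries: EAE ROS+ and EAE ROS-, from mice with experimental autoimmune encephalomyelitis (EAE) at its onset (an inflammatory demyelinating disease raised by immunisation with a peptide of myelin oligodendrocyte glycoprotein), and Healthy ROS-, from mice without disease. Healthy ROS+ cells are not among the samples analysed here. Nothing in the labels ties the 2 libraries of a group to different mice, so p-values measure only the spread between libraries, which may be technical.

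The EAE ROS+ libraries held 15450857 and 23407825 unique molecular identifiers (UMIs, 1 per captured transcript), the EAE ROS- libraries 11909166 and 15754177, and the healthy libraries 915197 and 4431954. The files held 9079 barcodes, beside 8701 cells stated in the study's design text, and 9078 were kept. Among 9037 distinct barcodes, 42 occurred in 2 or more libraries.

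Cells were classed by UMIs of genes other than the receptors. Microglia-marker cells had at least 2 UMIs of Sparc and Olfml3 together and at most 1 of Ccr2, Ly6c2 and Fn1 together, monocyte-marker cells had the reverse, and dual-marker cells had at least 2 of each set. The EAE ROS+ libraries held 499 dual-marker, 3395 monocyte-marker and 21 microglia-marker cells, the EAE ROS- libraries 887, 1469 and 571, and the healthy libraries 9, 0 and 1907. UMIs were summed per library and class, and levels are given as CPM, the share of that sum's UMIs on the usual depth-scaled unit. A class with fewer than 10 cells in a library was not summed.

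The classes were checked on markers that did not define them. All 5 of Tmem119, Sall1, Siglech, Slc2a5 and Fcrls, genes of microglia, were detected in microglia-marker cells of every library, with summed levels of 955 to 1184 CPM in EAE ROS+, 1189 to 1637 CPM in EAE ROS- and 3936 to 4245 CPM in healthy libraries. Monocyte markers (Plac8, Chil3, F13a1, Ms4a4c, S100a4 and Vcan) summed to 460.5 to 864 CPM, 455 to 486 CPM and 10.9 to 24.5 CPM in the same 3 groups, so microglia-marker cells of EAE cord carried monocyte transcripts that healthy ones did not carry at that level. Endothelial markers (Cldn5, Flt1 and Pecam1) summed to 303 CPM in EAE ROS+ replicate 1, to 4.23 to 8.17 CPM in EAE ROS- and to 246 CPM in healthy replicate 2. Dual-marker cells were deeper than the others: a dual-marker cell held a median of 18274.5 and 11578 UMIs in the EAE ROS+ pair and of 10373 and 12139.5 UMIs in the EAE ROS- pair, against 6921 and 6070.5, and 5881 and 4499, in microglia-marker cells. A deep cell reaches 2 UMIs of both sets more easily, and a droplet with 2 cells does so too. Classing each cell on 1500 of its UMIs drawn at random left 133 dual-marker cells of 1395. Results that rest on the dual-marker class are also given for that second classing. It changed the microglia-marker class too. In EAE ROS- microglia-marker cells Ccr2, Ly6c2 and Fn1 then summed to 351 to 390 CPM, in place of 67.0 to 86.6 CPM. In EAE ROS+ ones they summed to 738 to 901 CPM, in place of 89.9 to 112 CPM.

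In healthy cord, microglia extend thin processes towards sites where cells leak nucleotides, and P2ry12, coupled to inhibitory G proteins, drives that movement on binding ADP. P2ry6 responds to UDP and promotes phagocytosis in microglia, Gpr34 senses a lysophospholipid exposed on damaged membranes, and Cx3cr1 binds fractalkine presented by neurons. P2ry12 and Cx3cr1 are widely used to tell microglia from other cells, and low P2ry12 is a known mark of microglia in inflamed tissue. Cx3cr1 is also carried by patrolling monocytes, and P2ry6 by other macrophages.

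P2ry12 and P2ry13 are neighbours. In GRCm38 (mm10), the build of the files, P2ry12 lies at chr3:59216272-59262871 and P2ry13 at chr3:59207892-59210882, both on the minus strand, and with P2ry14, a receptor of UDP-glucose at chr3:59113855-59153618, both lie inside the plus-strand gene Med12l (chr3:59005825-59318682). Exons of P2ry12 overlap Med12l exons and those of P2ry13 do not. Gpr34 (chrX:13632089-13640858, plus strand) lies inside Cask on the opposite strand, with no shared exon. P2ry6 is at chr7:100937630-100974649, Gpr56 at chr8:94974751-95014217 and Cx3cr1 at chr9:119901616-120069879. The promoters of the 3 neighbours on chromosome 3 are shown because P2ry12 and P2ry13 were lower and P2ry14 was higher in EAE than in healthy microglia-marker cells. Each runs from 250 bases before the RefSeq transcription start to 50 after it, at chr3:59262936-59263235 for P2ry12, chr3:59210833-59211132 for P2ry13 and chr3:59153443-59153742 for the first of 4 promoters listed for P2ry14, in GRCm38.p6, 5' to 3' on the minus strand. Capitals mark GAGGAA, the PU box bound by the myeloid factor PU.1, searched on both strands.
P2ry12: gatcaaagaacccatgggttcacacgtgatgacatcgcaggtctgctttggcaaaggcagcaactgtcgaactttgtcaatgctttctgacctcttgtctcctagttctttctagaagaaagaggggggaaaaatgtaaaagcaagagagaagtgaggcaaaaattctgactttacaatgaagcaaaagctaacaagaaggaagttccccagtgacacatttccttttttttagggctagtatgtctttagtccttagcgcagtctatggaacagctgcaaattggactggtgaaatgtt
P2ry13: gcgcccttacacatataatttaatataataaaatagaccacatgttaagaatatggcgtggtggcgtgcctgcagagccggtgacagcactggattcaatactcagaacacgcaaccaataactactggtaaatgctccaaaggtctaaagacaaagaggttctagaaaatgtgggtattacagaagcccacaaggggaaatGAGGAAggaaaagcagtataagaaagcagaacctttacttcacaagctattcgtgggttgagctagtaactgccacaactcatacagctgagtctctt
P2ry14: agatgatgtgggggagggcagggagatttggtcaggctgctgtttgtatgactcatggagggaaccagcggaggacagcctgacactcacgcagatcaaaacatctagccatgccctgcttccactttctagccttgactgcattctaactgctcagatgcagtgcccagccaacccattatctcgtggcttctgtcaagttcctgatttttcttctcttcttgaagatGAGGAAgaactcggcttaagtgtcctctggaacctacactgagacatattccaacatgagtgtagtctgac
The motif stood once in the P2ry13 promoter, 48 bases before the start, once in this P2ry14 promoter, 21 bases before the start, and in neither orientation in the P2ry12 window. It occurs in 28.3% of 32851 mouse promoters of that length, so these matches only describe the letters.

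In microglia-marker cells, 5 of the 6 receptors were lower in EAE ROS- than in healthy libraries and P2ry6 was not. Gpr34 fell most, to 10.7-fold lower, then P2ry12, Gpr56, P2ry13 and Cx3cr1. Over all genes tested in this comparison 26.3% were called in either direction and 14.1% were called lower, by edgeR's quasi-likelihood test with Benjamini-Hochberg adjustment.

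P2ry12 stood at 358 and 445 CPM in EAE ROS- libraries, against 2557 and 2643 CPM in healthy libraries. It fell by 2.63 ± 0.26 on the log2 scale (SE, n = 2 libraries a group, edgeR adjusted p = 4.9e-09), which is 6.21-fold. P2ry13, its neighbour and fellow ADP receptor, stood at 112 and 188 CPM in EAE ROS-, against 466 and 583 CPM in healthy libraries. Its fall was smaller, 1.76 ± 0.27 on the log2 scale (edgeR adjusted p = 8.6e-06). Both ADP receptors thus had every EAE ROS- library below every healthy one. The share of all tested genes with groups apart in this way was not counted, here or in the comparisons below.

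P2ry6, the UDP receptor, had 180 and 206 CPM in EAE ROS- libraries, against 221 and 181 CPM in healthy libraries. The groups overlapped, and the 95% interval of the log2 difference ran from -0.46 to 0.46 (edgeR adjusted p = 0.9997). That interval takes a normal quantile, which is too narrow at 3 residual degrees of freedom. Changes of that size or somewhat larger remain possible in either direction.

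Gpr34, the lysophosphatidylserine receptor, had 198 and 129 CPM in EAE ROS- libraries, against 1800 and 1942 CPM in healthy libraries. It fell by 3.42 ± 0.31 on the log2 scale (edgeR adjusted p = 8.6e-10). In healthy microglia-marker cells it lay just below P2ry12, and in EAE ROS- cells it lay below P2ry12 in both libraries and below P2ry6 in replicate 2. UMIs count captured transcript ends, so these levels need no division by length.

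Gpr56, the adhesion receptor, was the lowest of the 6 in EAE ROS- cells, with 34.3 and 54.9 CPM in EAE ROS- libraries, against 190 and 209 CPM in healthy libraries. It fell by 2.14 ± 0.27 on the log2 scale (edgeR adjusted p = 5.5e-07). Cx3cr1, the fractalkine receptor, was the highest, with 1111 and 1238 CPM in EAE ROS- libraries, against 3281 and 3262 CPM in healthy libraries. Its fall of 1.41 ± 0.25 on the log2 scale was the smallest of the 5 (edgeR adjusted p = 8.2e-05). Neither gene's groups overlapped. The same 5 receptors were called in each alternative run. With cells classed on 1500 UMIs the log2 differences were -2.80 for P2ry12, -1.94 for P2ry13, -3.58 for Gpr34, -2.29 for Gpr56, -1.27 for Cx3cr1 and 0.0072 for P2ry6. The median over all tested genes was -0.15 in the first classing and -0.030 with cells classed on 1500 UMIs. The 5 microglial check markers were lower here too, summing to 1189 to 1637 CPM in EAE ROS-, against 3936 to 4245 CPM in healthy libraries. Monocyte transcripts moved with this comparison, as given above, as did the summed dendritic cell markers, at 53.5 to 68.7 CPM in EAE ROS-, against 247 to 403 CPM in healthy libraries. Of the 5 dendritic cell markers Fscn1 made up most of the sum, at 32.3 and 41.2 CPM in EAE ROS-, against 399 and 244 CPM in healthy libraries, where Ccr7 and Ccl22 were at 0. T cell markers summed to 22.2 to 29.4 CPM in EAE ROS-, against 0 to 0.457 CPM in healthy libraries. The part of these transcripts in the comparison was not tested.

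**Figure D1:**
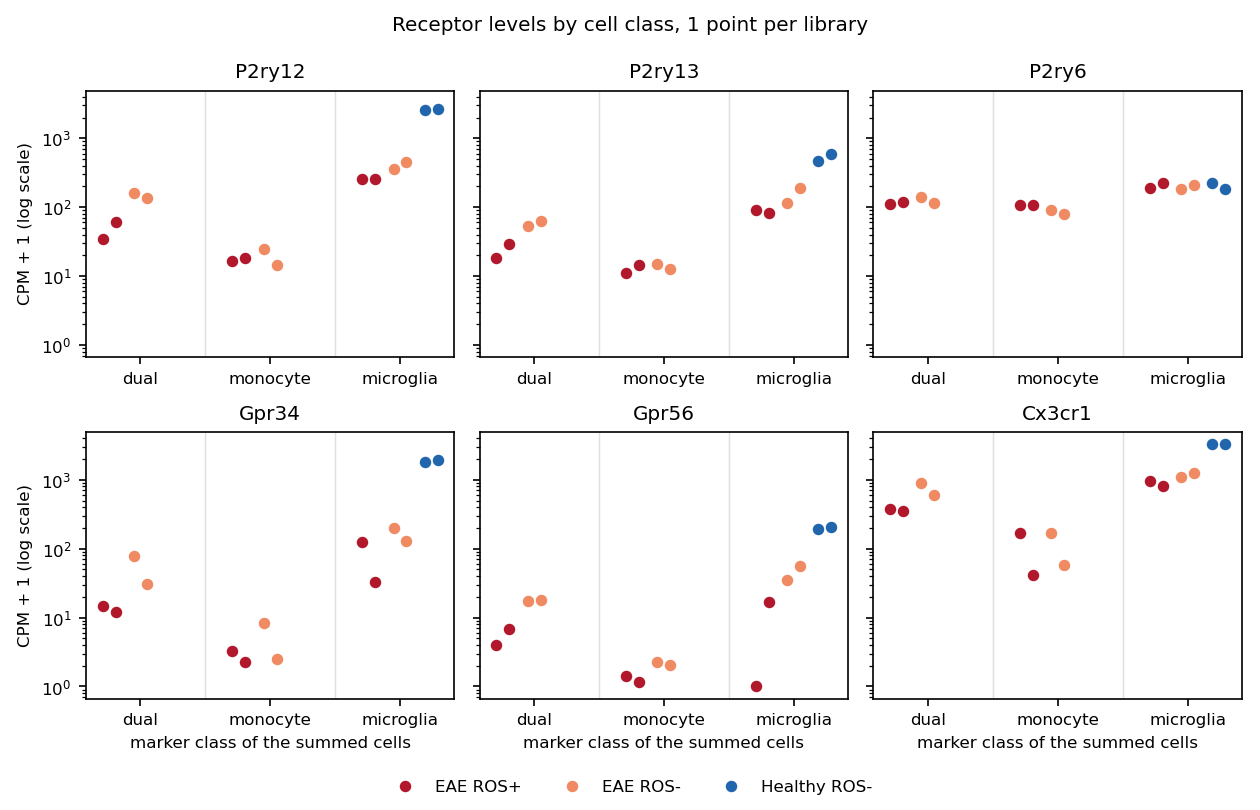
Level of each receptor as CPM + 1 on a log scale, by marker class, with 1 point per library summed over its cells of that class and colours for the 3 groups. In microglia-marker cells the 2 healthy libraries stand above the 4 EAE libraries for P2ry12, P2ry13, Gpr34, Gpr56 and Cx3cr1, while P2ry6 runs from 180 to 224 CPM in all 6.

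The same picture held cell by cell, on the same relative scale. Microglia-marker cells held a median of 5881 and 4499 UMIs in EAE ROS- libraries, against 2202 and 3609 UMIs in healthy ones. Levels in CPM and shares at equal depth are both relative to a cell's UMIs, so neither gives transcripts per cell. To set depths equal, cells were thinned to 1500 UMIs, which left out 184 and 9 healthy microglia-marker cells and none of the EAE ones. P2ry12 then had a UMI in 43.6% and 48.2% of EAE ROS- microglia-marker cells, against 95.8% and 96.7% of healthy ones. Without thinning these shares were 78.2% and 80.5%, against 98.0% and 99.5%. Gpr34 had a UMI in 21.01% and 12.82% of thinned EAE ROS- cells, against 89.2% and 95.1% of healthy ones. Cx3cr1 remained in most cells of both groups, at 76.9% and 73.3% in EAE ROS-, against 98.7% and 97.8% in healthy libraries. P2ry6 was in 27.4% and 23.6% of EAE ROS- cells, against 28.4% and 21.2% of healthy ones. A healthy cell showed a median of 4 of the 6 receptors at this depth and an EAE ROS- cell a median of 2. At least 4 receptors were seen in 7.98% and 7.18% of EAE ROS- cells, against 67.1% and 74.5% of healthy cells.

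**Figure D2:**
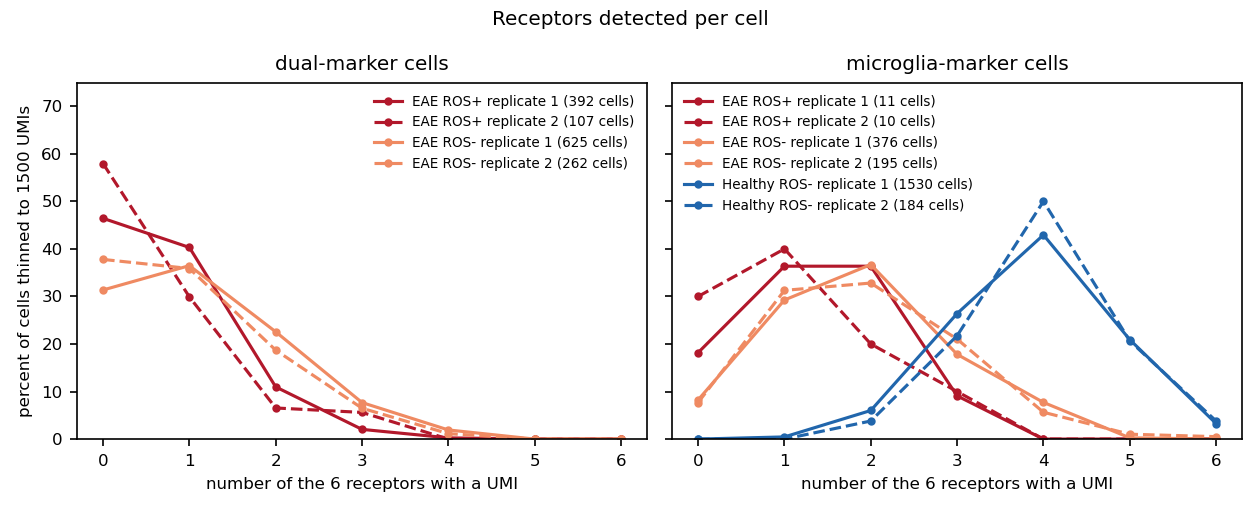
Percent of cells, each thinned to 1500 UMIs, with 0 to 6 of the receptors detected, for dual-marker cells on the left and microglia-marker cells on the right, with 1 line per library. Healthy microglia-marker cells peak at 4 receptors and EAE cells lie to the left of them, with the EAE ROS+ lines on the right resting on 11 and 10 cells.

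Within EAE cord, all 6 receptors were lower in monocyte-marker than in microglia-marker cells, P2ry6 least. In this comparison, fitted with the library as a block, 39.3% of genes were called in either direction and 18.8% were called lower. P2ry6 had the highest level relative to microglia-marker cells of the same library in each of the 4 libraries, also with cells classed on 1500 UMIs, and the order of the other receptors changed with the classing.

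Gpr34 had 2.26 and 1.25 CPM in monocyte-marker cells of EAE ROS+ libraries and 7.40 and 1.502 CPM in those of EAE ROS- libraries, against 124, 32.0, 198 and 129 CPM in microglia-marker cells of the same 4 libraries. The log2 difference was -4.90 ± 0.24 (SE, edgeR adjusted p = 9.6e-14, n = 4 libraries). Gpr56 had 0.147 to 1.28 CPM in monocyte-marker cells, against 0 to 54.9 CPM in microglia-marker cells, and was lower by a log2 difference of -4.95 ± 0.33 (edgeR adjusted p = 1.8e-11). Its 0 came from the 89035 UMIs of 11 EAE ROS+ replicate 1 cells, where 3 counts would be 33.7 CPM, so the 2 classes of that library cannot be ordered.

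P2ry12 had 15.6 and 17.2 CPM in EAE ROS+ and 23.5 and 13.5 CPM in EAE ROS- monocyte-marker cells, against 258, 256, 358 and 445 CPM in microglia-marker cells. The log2 difference was -3.78 ± 0.25 (edgeR adjusted p = 1.8e-11). P2ry13 differed by -2.88 ± 0.22 (edgeR adjusted p = 1.8e-10), at 10.2 to 14.04 CPM in monocyte-marker and 80.0 to 188 CPM in microglia-marker cells. Cx3cr1 differed between replicates among monocyte-marker cells, with 171 and 39.9 CPM in EAE ROS+ and 166 and 56.2 CPM in EAE ROS-, so that both replicate 1 libraries were high. It stood at 955, 816, 1111 and 1238 CPM in microglia-marker cells, a log2 difference of -3.08 ± 0.27 (edgeR adjusted p = 1.4e-09).

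P2ry6 had 107 and 106 CPM in EAE ROS+ and 89.3 and 79.6 CPM in EAE ROS- monocyte-marker cells, against 191, 224, 180 and 206 CPM in microglia-marker cells. Its log2 difference was -0.81 ± 0.14 (edgeR adjusted p = 3.8e-05), so monocyte-marker cells held 38.7% to 56.2% of the microglia-marker level. For P2ry12 the same share was 3.04% to 6.71%, and for Tmem119, a membrane protein gene of microglia given for scale, 2.37% to 7.996%.

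The low levels were set beside those of barcodes with T cell or dendritic cell markers, which were not kept apart from the 3 classes. After thinning, P2ry12 had a UMI in 3.82% and 2.64% of EAE ROS- monocyte-marker cells, against 10.8% and 2.86% of 37 and 35 T cell-marker barcodes (2 or more UMIs of Cd3d, Cd3e and Cd3g; median 8232 and 6613 UMIs, against 7303 and 6468 in monocyte-marker cells). P2ry13, Gpr34 and Gpr56 were likewise in no more monocyte-marker cells than the highest T cell-marker share, and Cx3cr1 was in 22.0% and 7.93%, against 37.8% and 17.1% of T cell-marker barcodes. T cell-marker barcodes held 88.2 and 71.4 CPM of P2ry12, against 23.5 and 13.5 CPM in monocyte-marker cells of the same libraries. For Cx3cr1 they held 900 and 445 CPM, against 166 and 56.2 CPM. Barcodes this rich in receptor transcripts give no background level, so the comparison cannot say how much of the monocyte-marker shares is background. Against 54 and 78 barcodes with 2 or more UMIs of the dendritic cell genes Ccr7 and Ccl22 (median 6998 and 5644 UMIs), the shares were 1.85% and 2.56% for P2ry12 and 0% and 0% for P2ry13, below the 1.34% and 1.69% of monocyte-marker cells with P2ry13, and 24.1% and 7.69% for Cx3cr1. P2ry6 was in 13.8% and 10.5% of EAE ROS- monocyte-marker cells, against 10.8% and 8.57% of T cell-marker barcodes and 1.85% and 2.56% of dendritic cell-marker ones. T cell-marker barcodes can hold a second cell, and that was not tested.

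**Figure D3:**
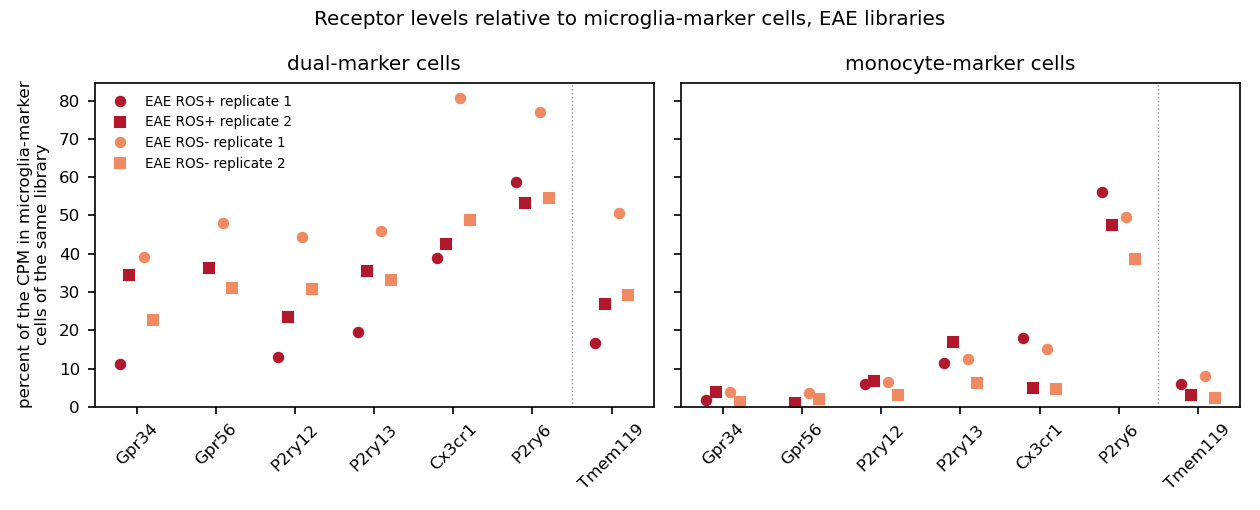
CPM of each receptor in dual-marker cells (left) and monocyte-marker cells (right) as a percent of its CPM in microglia-marker cells of the same EAE library, with Tmem119 to the right of the dotted line, 1 point per library and no Gpr56 point for EAE ROS+ replicate 1, where its microglia-marker level was 0. In monocyte-marker cells P2ry6 stands at 38.7% to 56.2% and the other receptors at 17.9% or less.

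Dual-marker cells lay between the other classes. All 6 receptors were lower in dual-marker than in microglia-marker cells, where 21.6% of genes were called in either direction and 9.16% were called lower. The log2 differences were -1.74 ± 0.19 for Gpr34 (edgeR adjusted p = 3.4e-07) and -1.66 ± 0.22 for P2ry12 (edgeR adjusted p = 5.6e-06). P2ry13 (-1.46) and Gpr56 (-1.25) followed, and P2ry6 (-0.58) and Cx3cr1 (-0.75) differed least. P2ry6 lost its call without EAE ROS- replicate 2 (-0.44, edgeR adjusted p = 0.089) and Cx3cr1 without EAE ROS+ replicate 2 (-0.73, edgeR adjusted p = 0.076). Tmem119 stood at 16.6% to 50.7% and P2ry12 at 12.97% to 44.4% of their microglia-marker levels, overlapping ranges. With cells classed on 1500 UMIs, P2ry12 (-0.87, edgeR adjusted p = 0.00070) and Gpr34 (-1.02, edgeR adjusted p = 0.010) were called and the other 4 were not, P2ry13 (-0.57, edgeR adjusted p = 0.18) among them, with dual-marker sums of 3 libraries of 20, 67 and 36 cells. The microglia-marker cells they were set against held more monocyte gate transcripts in that classing, as given above, so the smaller differences also reflect a changed reference class.

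The dye gate was compared within EAE cord. In microglia-marker cells, 0 of 8335 genes were called between EAE ROS+ and EAE ROS- (0% by edgeR, 504 genes at an unadjusted p under 0.05, and 3 genes by DESeq2). The EAE ROS+ side rests on 11 and 10 cells with 0 to 85 UMIs of a receptor. P2ry12 had 258 and 256 CPM in EAE ROS+, against 358 and 445 CPM in EAE ROS- libraries, with a 95% interval of the log2 difference from -1.33 to -0.10 and an edgeR adjusted p of 0.81. That interval also takes a normal quantile and is too narrow, so it is not read as excluding 0. P2ry13, Gpr34 and Cx3cr1 were not called either. They had 80.0 to 89.9, 32.0 to 124 and 816 to 955 CPM in EAE ROS+, against 112 to 188, 129 to 198 and 1111 to 1238 CPM in EAE ROS-. Gpr56 had 0 and 15.995 CPM, against 34.3 and 54.9 CPM. P2ry6 had 191 and 224 CPM, against 180 and 206 CPM, with an interval from -0.64 to 0.66.

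In dual-marker cells, 4 receptors were lower in EAE ROS+ than in EAE ROS-, where 1.66% of genes were called in either direction and 1.21% were called lower. P2ry12 had 33.5 and 60.1 CPM in EAE ROS+, against 159 and 137 CPM in EAE ROS- dual-marker cells, a fall of 1.63 ± 0.23 on the log2 scale (edgeR adjusted p = 0.015). P2ry13 had 17.5 and 28.4 CPM, against 51.6 and 62.1 CPM (fell by 1.28 ± 0.22, edgeR adjusted p = 0.029). Gpr34 had 13.9 and 10.99 CPM, against 77.5 and 29.4 CPM (fell by 1.93 ± 0.41, edgeR adjusted p = 0.049). In all 3 both EAE ROS+ libraries lay below both EAE ROS- ones, an order that was not counted over all genes.

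Gpr56 had 3.06 and 5.82 CPM in EAE ROS+, against 16.5 and 17.0 CPM in EAE ROS- dual-marker cells (fell by 2.03 ± 0.31, edgeR adjusted p = 0.019). Cx3cr1 had 370.5 and 347 CPM, against 897 and 604 CPM, and did not pass (log2 difference -0.94 ± 0.23, edgeR adjusted p = 0.076). It passed with the replicate number as a block (-0.92, edgeR adjusted p = 0.00012) and with DESeq2 (adjusted p = 0.023). P2ry6 had 112 and 120 CPM, against 139 and 112 CPM, with an interval of the log2 difference from -0.35 to 0.35. Microglial markers moved with the gate in this class too, at 159 to 245 CPM in EAE ROS+, against 492 to 606 CPM in EAE ROS- libraries, while neutrophil markers (S100a9, Camp, Ngp and Ly6g) summed to 30.1 to 54.9 CPM, against 0.549 to 1.13 CPM, T cell markers to 0 to 3.88 CPM, against 20.99 to 35.7 CPM, and dendritic cell markers to 2.81 to 11.6 CPM, against 32.9 to 35.7 CPM. Their part in the result was not tested. Without EAE ROS+ replicate 1, the deepest, 0 receptors were called (P2ry12 -1.25, edgeR adjusted p = 0.13). Gpr34 also lost its call without EAE ROS- replicate 1 (-1.01, edgeR adjusted p = 0.12), and Cx3cr1 passed without EAE ROS- replicate 2 (-1.21, edgeR adjusted p = 0.00073). With cells classed on 1500 UMIs only P2ry13 was (-2.35, edgeR adjusted p = 0.013), with a single EAE ROS+ library of 20 cells, whose spread is assumed to be that of the EAE ROS- pair.

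In monocyte-marker cells no receptor was called between EAE ROS+ and EAE ROS-, where 0.213% of tested genes were called by edgeR in either direction and 0.162% were called lower. P2ry6 had 107 and 106 CPM, against 89.3 and 79.6 CPM, the only receptor with both EAE ROS+ libraries above both EAE ROS- ones (log2 difference 0.38 ± 0.18, interval 0.03 to 0.73, edgeR adjusted p = 0.9993). That order was not counted over all genes. The interval takes a normal quantile, too narrow at 2 residual degrees of freedom, so it is not read as excluding 0. The interval of Cx3cr1 ran from -1.32 to 1.33. The differences between classes in the gate effect were not tested.

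**Figure D4:**
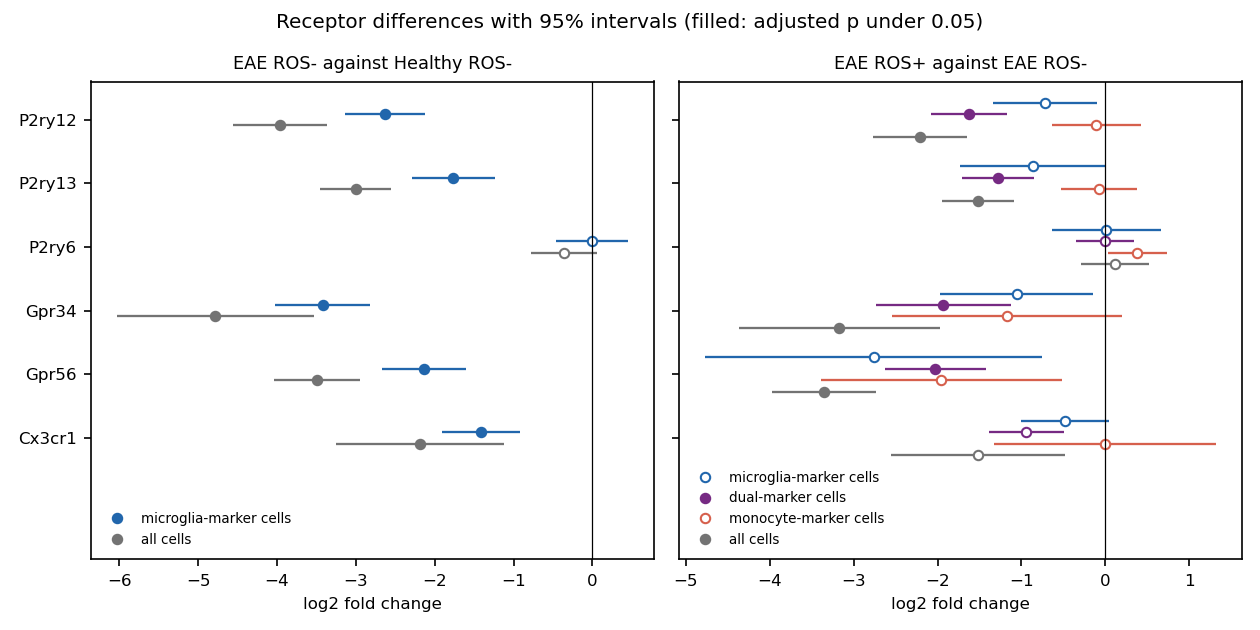
Log2 fold change of each receptor with its 95% interval, for EAE ROS- against Healthy ROS- on the left and EAE ROS+ against EAE ROS- on the right, by the cells summed, with filled points at an edgeR adjusted p under 0.05. P2ry6 has no filled point, with 0.38 in monocyte-marker cells and -0.36 in all cells of EAE ROS- its values farthest from 0, and the microglia-marker points of the other 5 receptors lie between -3.42 and -1.41 on the left.

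Summed over all cells, the differences were larger and the mixture of classes moved with them. Fewer cells of a class and less RNA per cell cannot be told apart in these sums. Between EAE ROS- and healthy libraries, 34.0% of genes were called in either direction, and 1914 of the 13631 tested were called lower. The same 5 receptors as in microglia-marker cells were lower, Gpr34 by a log2 difference of -4.78 ± 0.64 (edgeR adjusted p = 0.00065) and P2ry12 by -3.97 ± 0.31 (edgeR adjusted p = 3.5e-05). P2ry6 had 129 and 97.4 CPM in EAE ROS-, against 222 and 182 CPM in healthy libraries (-0.36 ± 0.21, edgeR adjusted p = 0.22). Without a scaling factor the median of all genes moved to -0.48 and P2ry6 was called (-0.84, edgeR adjusted p = 0.016). Cx3cr1 (-2.18 ± 0.54, edgeR adjusted p = 0.013) lost its call without healthy replicate 1 (edgeR adjusted p = 0.080) or 2 (edgeR adjusted p = 0.063).

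Between EAE ROS+ and EAE ROS- libraries over all cells, 2.16% of genes were called in either direction and 2.04% lower, with 4 receptors lower. P2ry12 had 22.8 and 22.3 CPM in EAE ROS+, against 151 and 85.6 CPM in EAE ROS-, a log2 difference of -2.21 ± 0.29 (edgeR adjusted p = 0.0053). Gpr56 (-3.35), Gpr34 (-3.17) and P2ry13 (-1.51) were also called, and Cx3cr1 was not (-1.51 ± 0.53, edgeR adjusted p = 0.24). Without EAE ROS+ replicate 2 the receptors called were 2, P2ry12 and Gpr56, and P2ry13 was also lost without EAE ROS+ replicate 1 (edgeR adjusted p = 0.074). Gpr34 was lost too without EAE ROS- replicate 1 (-1.97, edgeR adjusted p = 0.050) or either healthy library, while Cx3cr1 passed without EAE ROS+ replicate 1 (-2.64, edgeR adjusted p = 0.036) or EAE ROS- replicate 2 (-1.96, edgeR adjusted p = 0.019). With the replicate number as a block Cx3cr1 passed too (-1.61, edgeR adjusted p = 0.037) and 596 genes were called in place of 295. Microglia-marker and dual-marker cells were 0.630% and 22.5% of EAE ROS+ replicate 1 and 0.448% and 4.79% of EAE ROS+ replicate 2, against 23.3% and 38.7% of EAE ROS- replicate 1 and 12.8% and 17.1% of EAE ROS- replicate 2. The 2 comparisons over all cells share the EAE ROS- libraries, as do those in microglia-marker cells.

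Other genes of the same signalling families were read from 9 lists of 84 genes. In microglia-marker cells 43 of them were tested between EAE ROS- and healthy libraries, and 7 were higher, 6 lower and 30 not called. Over all tested genes 12.2% were called higher and 14.1% lower. Among other P2Y receptors 2 of 6 were tested. P2ry14, the neighbour of P2ry12 and P2ry13, was higher, at 24.5 and 31.7 CPM in EAE ROS-, against 0.23 and 0 CPM in healthy microglia-marker cells (90 UMIs against 1, edgeR adjusted p = 4.4e-08). The ratio was 138 with a counting interval from 24.1 to 5508. P2ry14 stood at 51.6 and 93.8 CPM in monocyte-marker cells of the EAE ROS- libraries, above its level in their microglia-marker cells, and the part of monocyte transcripts in its rise was not tested. A630033H20Rik, which the reference names P2ry10b, fell by 1.58 ± 0.45 on the log2 scale (edgeR adjusted p = 0.0093).

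Among adenosine receptors Adora1, the inhibitory A1 receptor, was higher, at 24.5 and 47.5 CPM in EAE ROS-, against 0.46 and 0 CPM in healthy microglia-marker cells (105 UMIs against 2, ratio 80.5 with a counting interval from 21.7 to 673, edgeR adjusted p = 3.5e-08). In monocyte-marker cells Adora1 was at 0.199 to 1.02 CPM, below every EAE microglia-marker sum. Adora3 was not called. Of the ATP-gated P2X channels 3 were tested and P2rx4 was higher, at 124 and 96.1 CPM in EAE ROS-, against 70.7 and 68.8 CPM in healthy libraries (log2 difference 0.76 ± 0.26, edgeR adjusted p = 0.030). None of 4 tested genes of nucleotide breakdown and uptake was called, Entpd1, the ectonucleotidase CD39, among them.

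On the list of lysophospholipid and related lipid receptors and enzymes 3 of 6 tested genes were lower, where 14.1% of all tested genes were called lower. Gpr183, the receptor of an oxidised cholesterol, had 39.2 and 24.3 CPM in EAE ROS-, against 167 and 233 CPM in healthy libraries (log2 difference -2.48 ± 0.31, edgeR adjusted p = 2.9e-07). Lpar6, a receptor of lysophosphatidic acid, had 44.1 and 67.6 CPM, against 242 and 179 CPM (-1.90 ± 0.26, edgeR adjusted p = 2.2e-06), and S1pr1, a receptor of sphingosine-1-phosphate, 5.31 and 2.11 CPM, against 17.6 and 27.8 CPM (-2.21 ± 0.57, edgeR adjusted p = 0.0041). Their list had a median log2 difference of -1.19, beside -0.15 over all tested genes. Abhd12, a lysophosphatidylserine lipase, was not called.

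Of 14 tested G protein, channel and arrestin genes 2 were lower, beside 14.1% of all tested genes. They were Gng10 (-1.11, edgeR adjusted p = 0.015) and Arrb1 (-1.11, edgeR adjusted p = 0.047). Kcnk13, the potassium channel THIK-1 through which P2ry12 is known to act in microglia, was not called, at a log2 difference of -0.68 ± 0.28 (edgeR adjusted p = 0.077). Of 4 tested adhesion receptors and Gpr56 partners Tgm2, a transglutaminase that binds Gpr56, was higher, at 78.9 and 107 CPM in EAE ROS-, against 32.9 and 19.3 CPM in healthy libraries (1.77 ± 0.29, edgeR adjusted p = 2.6e-05). Ctss, a protease that frees fractalkine, was higher at a log2 difference of 0.68 ± 0.25 (edgeR adjusted p = 0.043), and the sheddases Adam10 and Adam17 were not called.

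Of 5 tested chemokine and chemoattractant receptors beside Cx3cr1, Ccrl2 was higher, at 171 and 153 CPM in EAE ROS-, against 70.9 and 54.3 CPM in healthy libraries (1.42 ± 0.26, edgeR adjusted p = 9.3e-05). Cxcr4 was higher too, with 43 UMIs against 3 (ratio 22.0, counting interval 7.03 to 111, edgeR adjusted p = 0.0013). EAE ROS- monocyte-marker cells held 446 and 591 CPM of Ccrl2, 227 and 320 CPM of Tgm2 and 112 and 78.6 CPM of Cxcr4, each above its level in microglia-marker cells of those libraries, and the part of monocyte transcripts was not tested. Among the list genes, 7 lost their call without at least 1 library: Arrb1 without any one but EAE ROS+ replicate 2 (edgeR adjusted p of 0.060 to 0.36), Ctss without any EAE ROS- or healthy library (0.085 to 0.25), P2rx4 without EAE ROS- replicate 1 or either healthy library (0.080 to 0.35), A630033H20Rik without either EAE ROS- library or healthy replicate 1 (0.084 to 0.25), Gng10 without EAE ROS- replicate 1 or healthy replicate 1 (0.27 to 0.55), S1pr1 without EAE ROS- replicate 2 (0.083) and Cxcr4 without EAE ROS- replicate 1 (0.17).

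The genes that span receptors were read beside them. Med12l had 10.2 and 9.51 CPM in EAE ROS-, against 24.01 and 19.3 CPM in healthy microglia-marker cells, and was not called (log2 difference -1.06 ± 0.44, edgeR adjusted p = 0.075). Cask, which spans Gpr34, had 4.496 and 6.34 CPM, against 53.5 and 67.6 CPM, and fell by 3.43 ± 0.41 on the log2 scale (edgeR adjusted p = 1.8e-07), close to the fall of Gpr34. No source used here says whether the counting used strand, and without strand reads from the overlapping exons of P2ry12 and Med12l could not be told apart.

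Across the 14 library and class sums, P2ry12 and P2ry13 were the most alike pair of receptors, with a Pearson r of 0.994 for log2(CPM + 1), and P2ry6 and Gpr56 the least alike, with an r of 0.658. These sums share libraries and class definitions, so the r values only describe them. Among 5126 genes with a mean of at least 20 CPM, those nearest to P2ry12 were Ecscr, 6230427J02Rik and Arhgap5 (r of 0.995, 0.995 and 0.991), and those nearest to P2ry13 were Sft2d1, Ecscr and Apbb1ip (0.993, 0.989 and 0.989). Nearest to Gpr34 were Ulk2, Ptp4a3 and Asph (0.989, 0.987 and 0.981), to Gpr56 Phpt1, Tspan14 and Pla2g15 (0.976, 0.975 and 0.968), and to Cx3cr1 Hpgds, Fcrls and Itga6 (0.992, 0.986 and 0.981). P2ry6 had no gene as near, with Usp8, 0610030E20Rik and Rgmb at 0.956, 0.955 and 0.954.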

How the data were processed

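CD11b+ spinal cord cells were sorted on a ROS dye and sequenced with a droplet kit for transcript 3' ends, 1 library per sample, as the labels' protocols state. For each of the 6 libraries the authors deposited a matrix of UMI counts, whole numbers with no normalization per the file headers and values. The submitters' processing notes name Cell Ranger 2.0.1, Seurat 3, R 3.4.2 and the build mm10, and give no roles. No source used here gives the annotation or strand settings.

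A minimum of 200 genes and a maximum of 10% of UMIs from mitochondrial genes removed 1 barcode. 1 gene of the microglia check list is not reported here and was left out of its sums. No doublet caller was run, and doublets were not removed. Cells were classed as described, and UMIs summed per library and class with at least 10 cells. The sums went through edgeR's quasi-likelihood test (version 4.0.16, R 4.3.3) after TMM scaling, with genes kept by filterByExpr at 10 counts and called at a Benjamini-Hochberg adjusted p under 0.05 over the whole table, and DESeq2 1.42.0 was an alternative. Fits over 3 groups left 3 residual degrees of freedom, those within a class of EAE cord 2, and the fit over classes, with the library as a block, 6. Each standard error was derived from the F statistic. CPM are over plain totals, and counting intervals are exact and cover counting error only. The fit was run on simulated counts with large known changes in well-counted genes. Their spread was set below that estimated in the fits over all cells and within a single class. The simulation therefore does not give the power or error rate of those fits. Chi-square per degree of freedom between the libraries of a group ran from 4.58 to 74.6, so they differed by more than counting error. That value cannot show whether they came from different mice.

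The receptors, classes and lists were chosen with earlier results of these data known. Named beside the receptors were up to 4 genes per list with the smallest adjusted p in microglia-marker cells of EAE ROS- against healthy libraries, the genes spanning a receptor, and the 3 nearest genes of each. Alternatives were other scaling, DESeq2, no low count filter, a replicate block, leaving out each library, class minimums of 1 and 3 UMIs, classing on thinned cells and leaving out barcodes with endothelial or T cell UMIs. Promoters and coordinates are RefSeq and GENCODE entries of GRCm38. Tools were numpy 2.4.6, pandas 2.3.3, scipy 1.17.1 and matplotlib 3.10.9 in Python 3.11.15.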

Additional observations from a re-analysis of the deposited data

How the results depend on the processing

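In microglia-marker cells 5 of 6 receptors were called lower in EAE ROS- than in healthy libraries in each alternative run, and in monocyte-marker against microglia-marker cells all 6 were. Of 595 refits of a receptor, 514 kept direction and side of the threshold, 33 lost the call, 9 gained one and 39 changed sign, all 39 on values that were called in neither fit. Receptors called between EAE ROS+ and EAE ROS- dual-marker cells numbered 0 to 5 without 1 library, 1 with a class minimum of 3 UMIs and 1 with thinned classing, in place of 4. Those between dual-marker and microglia-marker cells numbered 2 with thinned classing in place of 6, and those in all cells between EAE ROS+ and EAE ROS- 2 to 5 without 1 library in place of 4. The P2ry12 share of EAE ROS- replicate 1 microglia-marker cells was 78.2% unthinned in place of 43.6%, because deeper cells yield more UMIs.

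Counts of called genes moved as follows. In all cells, EAE ROS+ against EAE ROS- gave 295 genes, 1006 with no low count filter, 596 with the replicate block and 123 to 632 without 1 library, and EAE ROS- against healthy gave 4629, and 2364 to 4295 without 1 library. In microglia-marker cells, EAE ROS- against healthy gave 2195, and 1230 to 2538 without 1 library. EAE ROS+ against EAE ROS- there gave 0, 3 with DESeq2, 3 without scaling, 3 with thinned classing, 17 with no filter and 0 to 17 without 1 library. Dual-marker cells gave 190, 121 with DESeq2, 731 with no filter, 1270 with the replicate block, 23 with a minimum of 3 UMIs, 28 with thinned classing, 72 without other cells and 7 to 606 without 1 library. Monocyte-marker cells gave 25, 90 with DESeq2, 165 with no filter, 15 without scaling, 133 with the replicate block, 11 with a minimum of 3 UMIs, 0 with thinned classing (533 at an unadjusted p under 0.05, edgeR), 12 without other cells and 60 to 69 without 1 library. Dual-marker against microglia-marker cells gave 2309, 324 with thinned classing and 1386 to 2009 without 1 library. The causes were not tested. The fit without scaling was chosen after seeing the data.

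Log2 differences that changed sign were P2ry6 in all cells, EAE ROS+ against EAE ROS- (-0.0577 without scaling, -0.0341 to 0.31 without 1 library), P2ry6 in microglia-marker cells, EAE ROS- against healthy (0.14 with no filter, 0.0024 with the replicate block, 0.0072 with thinned classing, 0.16 without other cells, -0.11 to 0.22 without 1 library) and EAE ROS+ against EAE ROS- (-0.16 with no filter, -0.18 with a minimum of 3 UMIs, -0.11 with thinned classing, -0.25 to -0.0835 without 1 library), and P2ry6 in dual-marker cells (0.0067 with RLE scaling, 0.0071 with DESeq2, 0.32 with thinned classing, -0.15 to 0.19 without 1 library). In monocyte-marker cells they were P2ry12 (-0.46 to 0.30 without 1 library), P2ry13 (0.0092 without other cells, -0.25 to 0.0905 without 1 library), Gpr34 (-1.9985 to 0.26 without 1 library) and Cx3cr1 (-0.0067 with RLE scaling, -0.0155 with DESeq2, -0.0716 without scaling, -0.17 with the replicate block, -0.0300 with a minimum of 1 UMI, -0.0274 with a minimum of 3 UMIs, -0.56 with thinned classing, -0.11 without other cells and -1.44 to 0.95 without 1 library).

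Whether the replicate numbers pair the EAE libraries was not settled, and the main comparisons of EAE ROS+ with EAE ROS- were fitted unpaired. Deviations of same-numbered libraries correlated at 0.42 between EAE ROS+ and EAE ROS- over all cells. They correlated at 0.09 in microglia-marker cells, where the EAE ROS+ sums rest on 11 and 10 cells. The other pairs lay between -0.04 and 0.02. This correlation was not computed in dual-marker or monocyte-marker cells. The comparison of EAE ROS+ with EAE ROS- microglia-marker cells was not run at a minimum of 1 UMI, where no EAE ROS+ library had 10 cells. Nor was it run without barcodes with endothelial or T cell UMIs, which left 9 such cells in each EAE ROS+ library. The EAE ROS+ microglia-marker sums are limited most by their few cells, 11 and 10, which held 89035 and 62518 UMIs in all.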
